A study of Equus caballus with 4 samples.

Results

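The genes examined here encode CDK inhibitors (*CDKN1A*, *CDKN1B*, *CDKN1C* and *CDKN2C*), D cyclins (*CCND1*, *CCND2* and *CCND3*) and pocket proteins (*RB1*, *RBL1* and *RBL2*), 10 genes in all. They were chosen by symbol as a measure of exit from the cell cycle, and their probes were found by the gene name that the array files give. Of the 10 genes, 8 had a probe among the 24998 gene names on the array, with 17 probes in total. *CDKN1C* and *CCND1* had no probe of that name. A probe whose description reads cyclin D1 but whose name is a transcript identifier lies outside this rule, and its values are given separately.

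Equine satellite cells (ESC), the muscle stem cells of the horse, were grown from the semitendinosus muscle of 6-month-old colts and brought to differentiate in medium with low serum. After 2 days of differentiation, HMB (*β*-hydroxy-*β*-methylbutyrate, a metabolite of leucine) was added for 24 h, and control cells stayed in differentiation medium for the same time. RNA of the 3rd day of differentiation was hybridised to 4 two-colour arrays (*n* 4). Cy5 always carried the HMB-treated sample and Cy3 the control. The dose is 50 µM in the methods and 50 µg in the sample labels. The description field calls the treated cells GO-treated, while titles and source names say HMB, which was used here. Because the dyes were never exchanged, a dye bias of a probe and the treatment cannot be told apart. By the methods, the cells of each flask were divided between a plate for HMB and a plate for control. The labels call the arrays biological replicates, but neither they nor the methods say which of the 6 colts each came from. Nor do they say whether both samples of an array shared a colt. The adjusted P values below therefore measure only the spread between these 4 arrays, which appear to have shared 1 slide.

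Progress from G1 to S phase depends on the D cyclins, which activate CDK4 and CDK6, and on cyclins E and A, which activate CDK2. These kinases phosphorylate the pocket proteins, which otherwise hold E2F factors at promoters of replication and mitotic genes and keep them silent. The Cip/Kip inhibitors p21 (*CDKN1A*), p27 (*CDKN1B*) and p57 (*CDKN1C*) bind cyclin-CDK complexes, whereas the INK4 inhibitor p18 (*CDKN2C*) binds CDK4 and CDK6 themselves. In myoblasts, p21, p57 and the retinoblastoma protein are known for the lasting arrest that comes with myotube formation, and cyclin D3 is known to accumulate during differentiation. p130 (*RBL2*) is the main pocket protein of quiescent cells, while p107 (*RBL1*) is abundant in cycling cells.

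The value of a probe is the log2 ratio of HMB-treated over control cells, so that a negative value stands for less mRNA with HMB. Each of the 17 probes of the members had a signal well above background in Cy3 as well as in Cy5 on the 4 arrays, and none was saturated. The probes have 60 bases. Those of the genes past the threshold, and that described as cyclin D1, are shown 5′ to 3′ to let a reader see what was hybridised, with capitals marking the longest run that also occurs, on either strand, in a probe of another gene:
CDKN1A: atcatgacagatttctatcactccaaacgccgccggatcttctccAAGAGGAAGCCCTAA
CCND2: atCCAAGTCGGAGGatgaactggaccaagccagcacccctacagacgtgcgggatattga
CCND3: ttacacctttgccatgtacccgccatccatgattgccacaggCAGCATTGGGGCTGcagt
CCND1 by description: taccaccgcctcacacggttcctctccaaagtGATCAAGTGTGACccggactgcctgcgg

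These runs were 15, 12, 14 and 13 bases long, and over the 18 probes they were between 12 and 18 bases. The probe of *CDKN1A* (ENSECAT00000022947, chromosome 20, 30004703 to 30006123 on EquCab1) reads through 19 codons without a stop and ends on the stop codon TAA. Its position covers 1421 bases of the genome for 60 bases of probe, so it bridges a splice junction of the coding sequence. The probe of *CCND2* lies on chromosome 6 (ENSECAT00000013282, 32322239 to 32322298, plus strand). That of *CCND3* lies on chromosome 20 (ENSECAT00000025618, 34656540 to 34656599, minus strand). The probe described as cyclin D1 (ENSECAT00000021461) covers 2700 bases of chromosome 12, from 19121563 to 19124262, and so also bridges a junction.

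Of the 8 members with a probe, 3 had an adjusted P of at most 0.05 in the limma test, and all 3 were lower in HMB-treated cells. They were *CDKN1A*, *CCND2* and *CCND3*. Over all 15614 tested gene names, each represented by its probe of highest mean signal, 22.4% passed the threshold, 11.6% lower and 10.9% higher with HMB. Over all tested probes the share was 22.8%, and among the 17 probes of the members 5 passed. The count of 3 of 8 is thus to be read against a background in which more than 1 gene in 5 passed. Ratios were negative on all 4 arrays for 3 members and positive on all 4 for 1, shares that were 21.4% and 24.4% over all gene names. The median of the members' mean log2 ratios was -0.16, beside 0.02 over all gene names. In bulk RNA, fewer cells that hold a transcript and less of it per cell cannot be told apart.

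**Figure D1:**
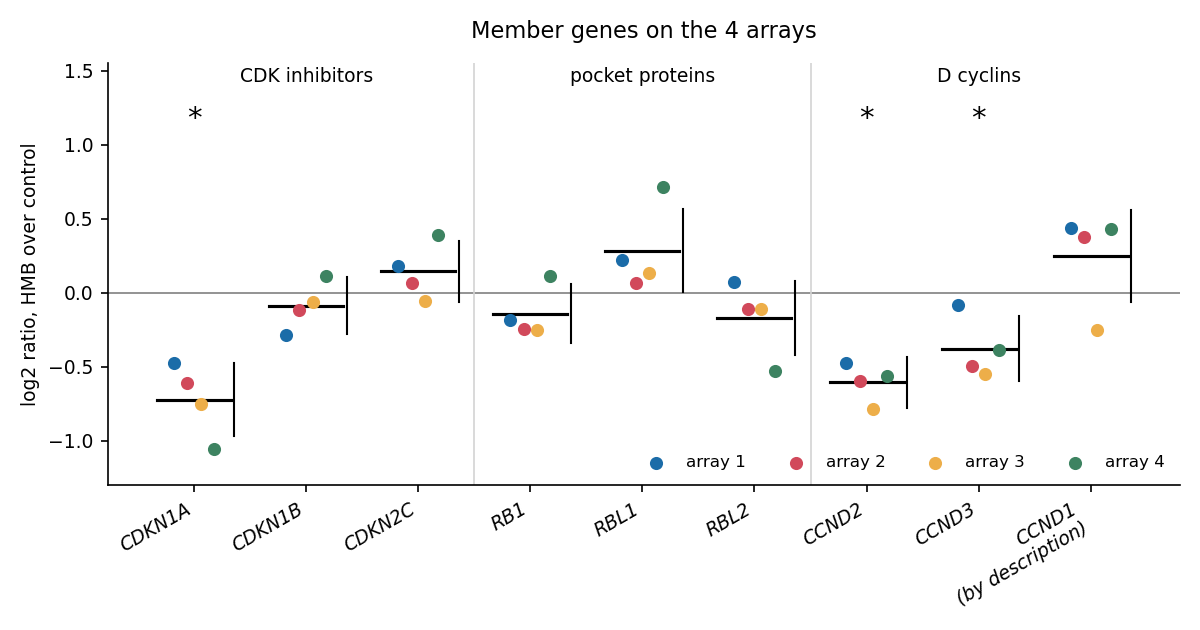
Log2 ratio of HMB-treated over control cells for each member on arrays 1 to 4 (points), with the mean (horizontal line) and its 95% confidence interval (vertical line); asterisks mark an adjusted P of at most 0.05. The points of CDKN1A lie between -1.05 and -0.48 and those of CCND2 between -0.78 and -0.48, while those of the pocket protein genes lie between -0.53 and 0.72.

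*CDKN1A* encodes the Cip/Kip inhibitor p21, a target of MyoD. Its processed signal in control cells was 156, 190, 158 and 179 on arrays 1 to 4. In HMB-treated cells it was 112, 125, 93.8 and 86.1, so that the highest treated value was below the lowest control value. How many of all genes were separated in this way was not counted. The log2 ratios were -0.48, -0.61, -0.75 and -1.05, with array 4 the furthest from 0. Their mean was -0.72 ± 0.25 (SD, *n* 4; standard error 0.10; 95% confidence interval -0.97 to -0.48), a level 1.65-fold higher in control cells (adjusted P = 0.00685). The call held with any 1 of the arrays removed, at adjusted P values between 0.0101 and 0.031. It did not pass in the one-sample t-test (adjusted P = 0.0864) or with no filter on dim probes (0.0518), the range over all alternatives being 0.00453 to 0.0864.

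*CDKN1B*, the gene of the inhibitor p27, was represented by 5 probes on chromosome 6 whose starts are 1 base apart. They cover 64 bases together and share 56, in capitals in the first and the last of them, so they are close to repeats of 1 measurement:
CDKN1B, first: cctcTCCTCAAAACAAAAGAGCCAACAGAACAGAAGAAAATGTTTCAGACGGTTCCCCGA
CDKN1B, last: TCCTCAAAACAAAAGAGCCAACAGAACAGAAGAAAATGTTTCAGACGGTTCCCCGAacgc

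The log2 ratios of the brightest *CDKN1B* probe were -0.29, -0.12, -0.06 and 0.11 on arrays 1 to 4. Array 4 thus had the opposite sign to the others. The mean was -0.09 ± 0.16 (95% confidence interval -0.28 to 0.10, adjusted P = 0.455), and the means of the 5 probes were between -0.11 and -0.09. With ratios centred without lowess, a setting that also corrects background by normexp, the mean turned to 0.04. Without array 1 it was -0.02 and without array 4 -0.15. p27 is regulated to a large part by its degradation, which these arrays do not measure.

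*CDKN2C*, the gene of p18, had 2 probes on chromosome 2 that overlap and together span bases 6551256 to 6551345. The brighter one had log2 ratios of 0.18, 0.07, -0.06 and 0.39 on arrays 1 to 4. Only array 3 was below 0, and the values did not stand apart from 0 beyond their spread, with a mean of 0.14 ± 0.19 (95% confidence interval -0.06 to 0.35, adjusted P = 0.264). The other probe had a mean of 0.15. Without array 4 the mean of the brighter one was 0.06. Centred without lowess, the mean of the brighter probe was 0.43 and passed (adjusted P = 0.0476, range over alternatives 0.0476 to 0.673).

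**Figure D2:**
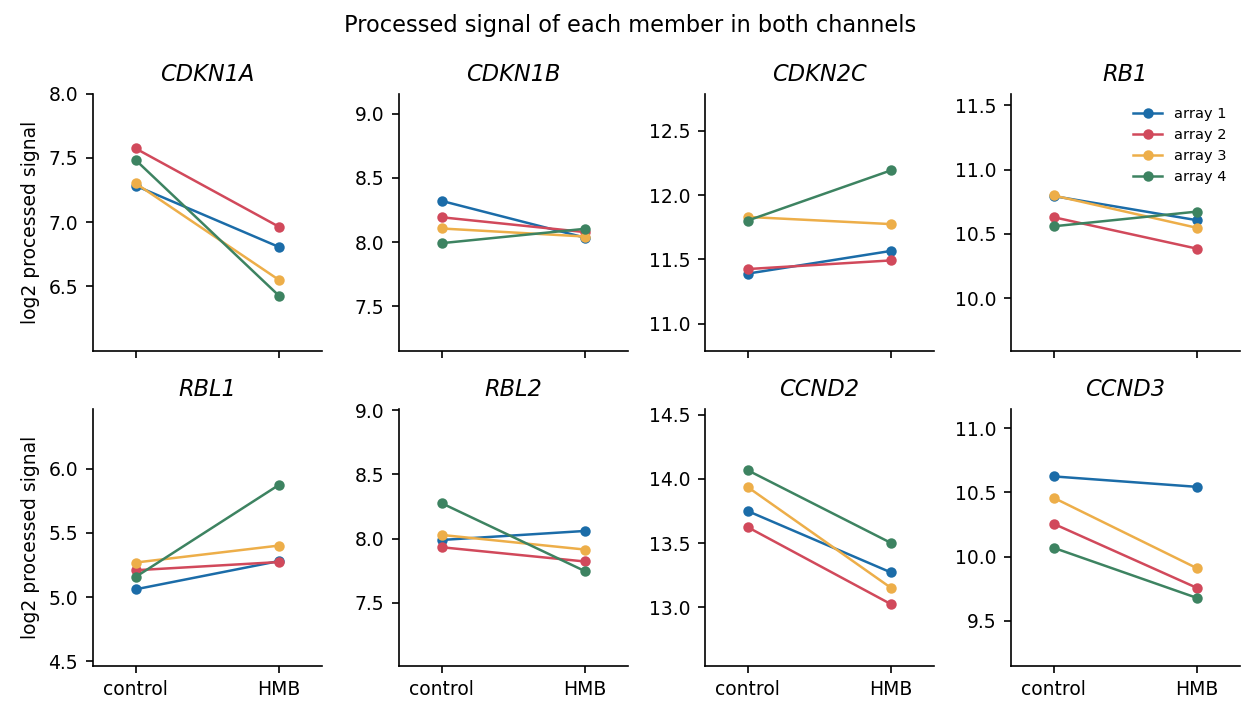
Log2 processed signal of each member in control (Cy3) and HMB-treated (Cy5) cells, with 1 line per array and a vertical span of 2 log2 units in every panel. All 4 lines fall for CDKN1A, CCND2 and CCND3, and all 4 rise for RBL1, most of all on array 4.

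Both D cyclin members with a probe were lower with HMB. *CCND2*, which encodes cyclin D2, had a processed signal of 13776, 12631, 15680 and 17168 in control cells on arrays 1 to 4. In HMB-treated cells it was 9894, 8339, 9107 and 11601, again without overlap, for which no share over all genes was counted. The log2 ratios were -0.48, -0.60, -0.78 and -0.57, a narrow spread around a mean of -0.61 ± 0.13 (SD, *n* 4; standard error 0.07; 95% confidence interval -0.78 to -0.43). The level was 1.52-fold higher in control cells (adjusted P = 0.00423). The 2 other probes of the gene, from an mRNA contig and reaching to base 32327426 of chromosome 6, had means of -0.67 and -0.66, and all 3 probes passed. *CCND2* also passed with any 1 of the arrays removed (adjusted P between 0.011 and 0.0226), but not in the one-sample t-test (0.0579). It did not pass with ratios centred without lowess either, where its mean was -0.22 (adjusted P = 0.162, the highest of a range that started at 0.00138).

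*CCND3* encodes cyclin D3, the D cyclin that is held with the retinoblastoma protein in differentiated muscle cells. Its processed signal in control cells was 1578, 1222, 1406 and 1074 on arrays 1 to 4. In HMB-treated cells it was 1492, 865, 962 and 820, so the groups overlapped because of array 1. The log2 ratios were -0.08, -0.50, -0.55 and -0.39, the first of them close to 0. The mean was -0.38 ± 0.21 (standard error 0.09, 95% confidence interval -0.60 to -0.16), with an adjusted P = 0.0313. This call was less firm than those of *CDKN1A* and *CCND2*. It was lost without array 2 (mean -0.34, adjusted P = 0.125), without array 3 (-0.32, 0.122) and without array 4 (-0.38, 0.0691), and held without array 1 (-0.48, 0.0183). It was also lost with ratios centred without lowess, in the one-sample t-test, with no filter on dim probes and with channels unpaired, the range over all alternatives being 0.0183 to 0.292.

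The probe described as cyclin D1, the D cyclin that mitogens induce, had log2 ratios of 0.43, 0.38, -0.25 and 0.43 on arrays 1 to 4. Array 3 stood alone below 0. The mean was 0.25 ± 0.33 (95% confidence interval -0.06 to 0.56, adjusted P = 0.207). Without array 3 it was 0.41 and passed (adjusted P = 0.0354), and it passed with ratios centred without lowess as well (0.46, 0.0332), in a range over alternatives of 0.0332 to 0.721. Whether the change of this probe differed from those of *CCND2* and *CCND3* was not tested.

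**Figure D3:**
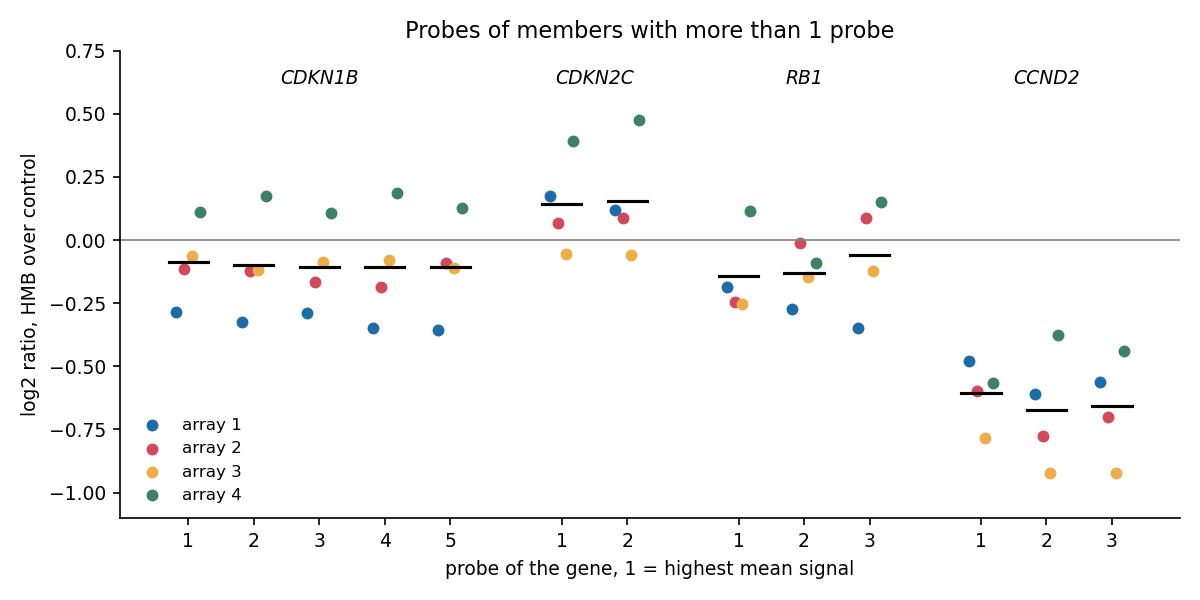
Log2 ratio of HMB-treated over control cells on arrays 1 to 4 (points) and mean (line) for each probe of the 4 members with more than 1 probe, in order of mean signal. The 3 probes of CCND2 have means between -0.67 and -0.61, and the 5 probes of CDKN1B between -0.11 and -0.09.

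None of the 3 pocket protein genes passed the threshold. *RB1*, which encodes the retinoblastoma protein, had 3 probes on chromosome 17. The brightest (XM_001490561, 21403652 to 21403711) had log2 ratios of -0.19, -0.24, -0.25 and 0.11 on arrays 1 to 4, with array 4 alone above 0. Its mean was -0.14 ± 0.17 (95% confidence interval -0.34 to 0.06, adjusted P = 0.25), and it turned to 0.05 with ratios centred without lowess. Without array 4 it was -0.23 and did not pass. The 2 other probes had means of -0.13 and -0.06.

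*RBL1*, the gene of p107, had a processed signal between 33.4 and 58.6. Its log2 ratios were 0.22, 0.06, 0.13 and 0.72 on arrays 1 to 4, all above 0 and highest on array 4. The mean was 0.28 ± 0.30 (95% confidence interval 0.00 to 0.56), and the adjusted P = 0.127 did not pass. Without array 4 the mean was 0.14, with normexp and loess 0.09, and with ratios centred without lowess 0.06, below the median of all probes in that setting. *RBL2*, the gene of p130, had ratios of 0.07, -0.11, -0.11 and -0.53, where array 4 was the lowest. Its mean was -0.17 ± 0.25 (95% confidence interval -0.42 to 0.08, adjusted P = 0.273), and without array 4 it was -0.05. The intervals of the 3 genes reach 0 or come close to it, so that small changes in either direction were not resolved with 4 arrays.

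In order of their mean ratios the members ran from *CDKN1A* (-0.72) and *CCND2* (-0.61) through *CCND3* (-0.38), *RBL2* (-0.17), *RB1* (-0.14) and *CDKN1B* (-0.09) to *CDKN2C* (0.14) and *RBL1* (0.28). The confidence intervals of neighbours in this order overlapped, and differences between members were not tested. In the setting with normexp and centring but no lowess, the median of all tested probes was 0.15 beside 0.02 with the deposited ratios, and the share of changed probes that were higher with HMB was 78.3% beside 49.1%. It was 44.0% with normexp and loess. It was 29.9% with channels unpaired and 36.2% without array 2. Taken from the median of 0.15, the ratios in this setting were -0.64 for *CDKN1A*, -0.37 for *CCND2*, -0.34 for *CCND3*, -0.20 for *RBL2*, -0.11 for *CDKN1B*, -0.10 for *RB1* and 0.28 for *CDKN2C*. *RBL1* was at -0.09 on this scale, and background correction and dye normalisation both differ here from the deposited ratios. The count of members past the threshold was 2 in that setting, with *CDKN1A* lower and *CDKN2C* higher.

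**Figure D4:**
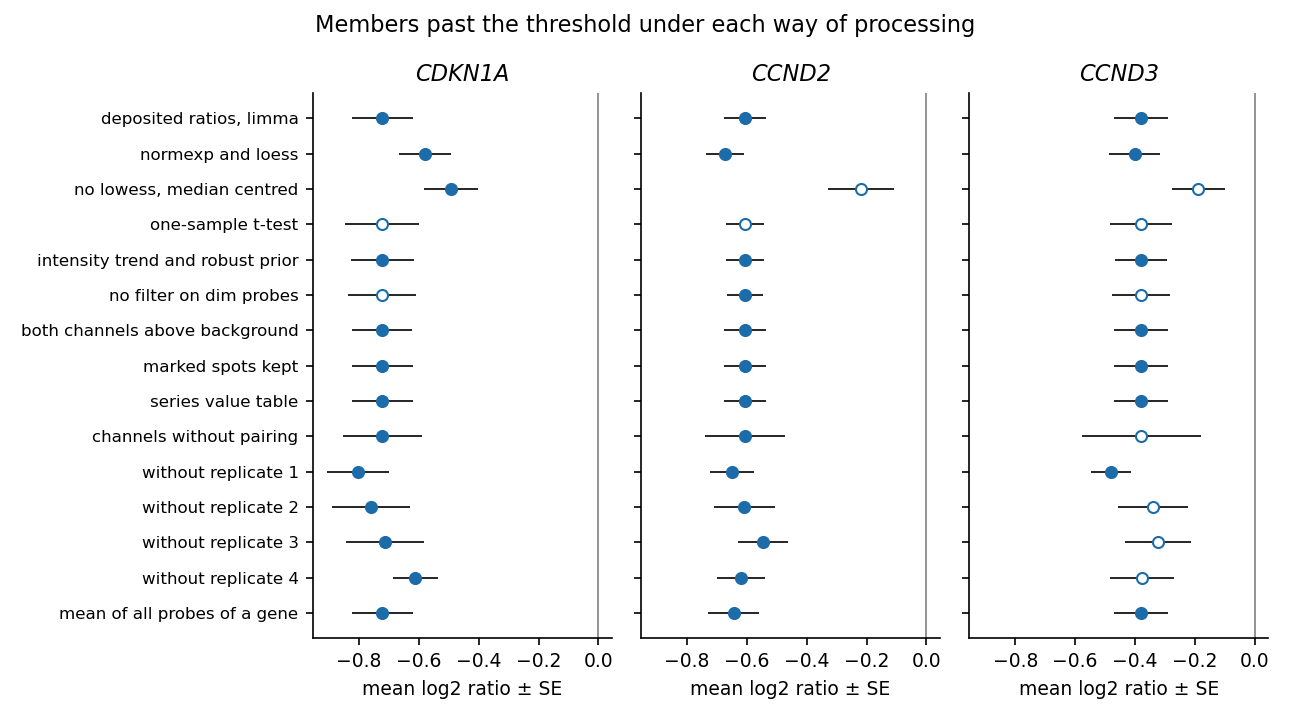
Mean log2 ratio (point) and standard error (line) of the 3 members past the threshold under each way of processing the arrays; filled points have an adjusted P of at most 0.05. All means are below 0, and the open points include those of CCND2 and CCND3 with ratios centred without lowess, at -0.22 and -0.19.

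The members were set beside 7 lists of genes that work with them, 92 genes of which 79 were tested. Of these, 22 passed the threshold, 7 lower and 15 higher with HMB, or 27.8% beside 22.4% of all gene names. Their median log2 ratio was 0.10. The count was 11 without array 1, 6 without array 2, 15 without array 3 and 14 without array 4. It was 0 in the one-sample t-test, where 20 genes had an unadjusted P under 0.05, 0 in limma with channels unpaired, where 14 had, and 1 with no filter on dim probes. With ratios centred without lowess it was 27, of which 0 were lower. The counts of single lists below are to be read against the same 22.4%.

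Among the kinases and cyclins of the G1/S step, 8 of 10 genes were tested and 1 passed. This was *CCNA2*, which encodes the cyclin A of S phase and mitosis, with log2 ratios of 0.89, 0.82, 0.35 and 0.98 on arrays 1 to 4 and a mean of 0.76 ± 0.28 (adjusted P = 0.00766). The genes of the kinases that the D cyclins and inhibitors bind did not pass. The mean ratio was 0.14 ± 0.19 for *CDK2*, 0.01 ± 0.40 for *CDK4*, whose arrays ranged from -0.37 to 0.57, and -0.09 ± 0.15 for *CDK6*, which turned to 0.11 with ratios centred without lowess. Without array 4 the mean of *CDK2* was 0.052. That of *CDK6* ran from -0.16 to -0.038 with 1 array left out. Of the 4 other genes of CDK inhibitors on the list, all tested, only *CDKN3* passed, a phosphatase gene of the G1/S and mitotic kinases. It was higher on all 4 arrays, at 0.84, 0.95, 0.74 and 1.43, with a mean of 0.99 ± 0.31 (adjusted P = 0.00439). The 3 others did not pass. Of the 4 means on the list 2 were above 0, the lowest was -0.32 and the median 0.06.

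Of the E2F, DP and MuvB partners of the pocket proteins, 14 of 16 genes were tested and 0 passed in limma, where 5 had an unadjusted P under 0.05, or in the one-sample t-test, where 1 had. The count was 4 with ratios centred without lowess, 1 without array 1 and 2 without array 3. Their median was 0.13, beside 0.02 over all gene names, and 12 of the 14 means were above 0. *E2F1* had a mean of 0.10 ± 0.18, *TFDP1*, which encodes the partner DP1, of 0.13 ± 0.16, and *E2F4*, the repressor that p130 binds, of 0.34 ± 0.31 (adjusted P = 0.087) with array 1 far above the others. Over all alternatives, the mean of *E2F4* ran from 0.19 to 0.40, of *E2F1* from 0.044 to 0.19 and of *TFDP1* from 0.080 to 0.25.

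The proliferation genes, whose promoters are silenced through pocket proteins and E2F or MuvB complexes, were read next. Of 20 genes 17 were tested, all 17 means were above 0, and 9 passed, all higher, beside the 10.9% of all gene names that were higher. The median log2 ratio was 0.35, and on arrays 1 to 4 it was 0.51, 0.37, 0.05 and 0.59, so that array 3 showed little of the difference. The summed processed signal of the list was 28920, 28406, 49711 and 52145 in control cells on arrays 1 to 4. In HMB-treated cells it was 40400, 37067, 51415 and 76638. The control signal thus also differed between arrays. *CCNB2* and *CCNB1*, the genes of the mitotic B cyclins, had means of 0.66 ± 0.28 (adjusted P = 0.0114) and 0.70 ± 0.31 (0.0123). *AURKB*, a kinase gene of chromosome segregation, had a mean of 0.54 ± 0.26 (0.0176), and *MKI67*, the gene of the proliferation marker Ki-67, of 0.72 ± 0.39 (0.0189). *AURKB* and *MKI67* did not pass without array 1 (means 0.50 and 0.72) or array 2 (0.57 and 0.73). The count of 9 fell to 2 without array 1, to 2 without array 2 and to 4 without array 4. It was 10 without array 3, 6 with normexp and loess and 15 with ratios centred without lowess. It was 0 in the one-sample t-test (7 at an unadjusted P under 0.05), 0 in limma with no filter on dim probes (8) and 0 in limma with channels unpaired (0).

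**Figure D5:**
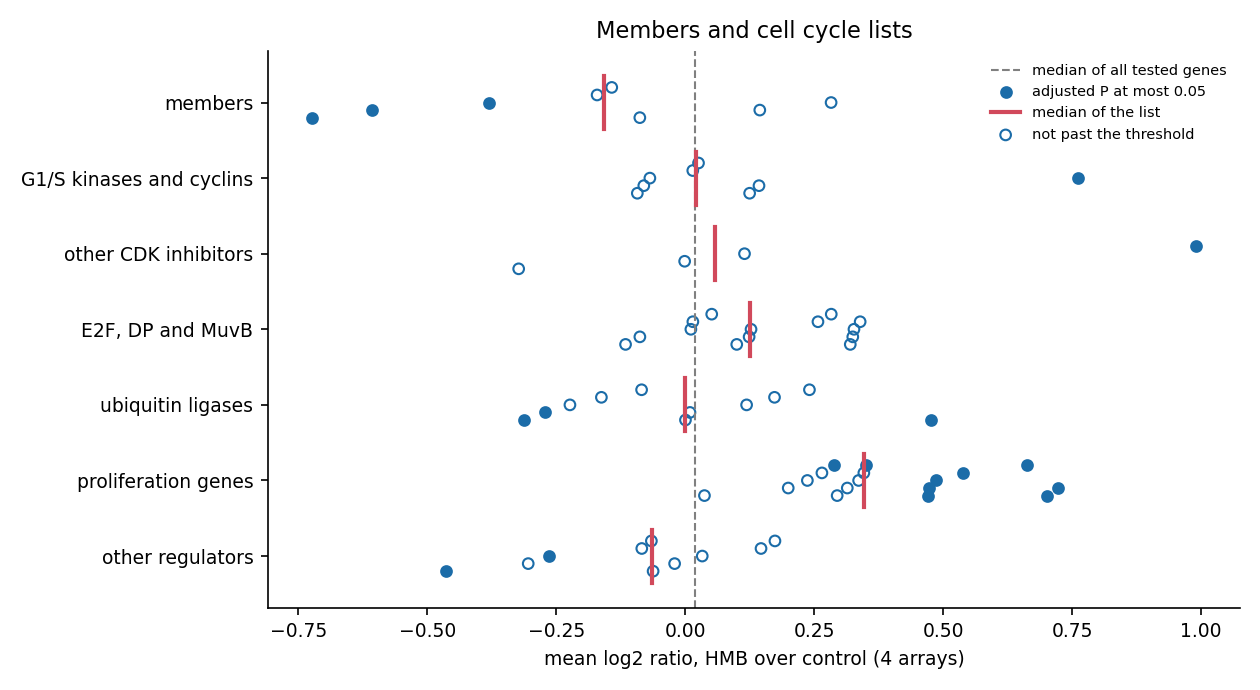
Mean log2 ratio of HMB-treated over control cells for the 8 tested members and the tested genes of 6 cell cycle lists; each point is a gene, filled where the adjusted P is at most 0.05, the red bar is the median of the list and the dashed line the median of all tested gene names (0.02). All 17 proliferation genes lie above 0, with a median of 0.35, and the members have a median of -0.16.

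Some genes of growth arrest and DNA damage were read beside *CDKN1A*, which shares in that response. *GADD45A*, a growth arrest gene, had log2 ratios of -0.38, -0.39, -0.54 and -1.12 on arrays 1 to 4, with array 4 the lowest as for *CDKN1A*. Its mean was -0.61 ± 0.35 (adjusted P = 0.0231), and it was lost without array 3 (-0.63) and with ratios centred without lowess (-0.29). *SESN1*, a stress response gene (-0.38), and *RRM2B*, a ribonucleotide reductase gene (-0.23), were also lower, and both were named after their values were seen. With 1 array left out, *SESN1* passed only without array 1 (-0.48), and *RRM2B* lost its call whichever of the 4 was left out. Over all alternatives, the mean of *RRM2B* ran from -0.26 to -0.049 and that of *SESN1* from -0.48 to -0.24. *MDM2*, a ubiquitin ligase gene, had a mean of 0.32 ± 0.13 (adjusted P = 0.024), and *DDB2*, a gene of DNA repair, of 0.37 ± 0.15 (0.0195). *MDM2* turned to -0.0028 with ratios centred without lowess and did not pass without array 2 (mean 0.26) or array 3 (0.34), and *DDB2* not without array 3 (0.38). None of the genes named here beside *CDKN1A* passed in the one-sample t-test, with no filter on dim probes or with channels unpaired.

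Of the ubiquitin ligase genes for CDK inhibitors, cyclin E and D cyclins, 11 of 12 were tested and 3 passed. Over all gene names the share past the threshold was 22.4%. *SKP1*, a shared subunit of SCF ligases, was lower at -0.31 ± 0.14 (adjusted P = 0.0307), but its mean was 0.21 with ratios centred without lowess. *FBXW7*, the F-box gene for cyclin E, was lower at -0.27 ± 0.14 (0.0429), and *DTL*, a subunit gene of the CUL4 ligase for p21, was higher at 0.48 ± 0.31 (0.0348). *SKP2*, the F-box gene for p27, had a mean of 0.17 ± 0.33, *AMBRA1*, the adaptor for D cyclins, of 0.12 ± 0.22, *FBXO4* of 0.24 ± 0.12 and *CUL4A* of -0.22 ± 0.31, and these did not pass. With 1 array left out, the mean of *SKP2* ran from 0.049 to 0.27, of *AMBRA1* from 0.012 to 0.17 and of *CUL4A* from -0.34 to -0.094. The count was 1 without array 1, 0 without array 2 (3 at an unadjusted P under 0.05), 1 without array 3 and 3 without array 4. The gene called without array 1 was lower and was none of *SKP1*, *FBXW7* and *DTL*. Those called without array 4 were *SKP1*, *FBXW7* and *FBXO4*. With 1 array left out, *SKP1* and *FBXW7* passed only without array 4 (-0.24 and -0.34) and *DTL* only without array 3 (0.62). Over all alternatives, the mean of *FBXW7* ran from -0.34 to -0.097 and that of *DTL* from 0.31 to 0.62. *FBXO4* passed without array 4 (0.30), and also with normexp and loess (0.22), with ratios centred without lowess (0.40) and with an intensity trend (0.24).

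Among other regulators of the members' transcription, 10 of 12 were tested and 2 passed, both lower. Over all gene names 22.4% passed, and 11.6% passed and were lower. *FOXO1*, a transcription factor that induces *CDKN1B* and represses D cyclins, had a mean of -0.46 ± 0.19 (adjusted P = 0.015). *CTNNB1*, the gene of β-catenin, had a mean of -0.26 ± 0.14 (0.0483), which turned to 0.33 with ratios centred without lowess. *FOXO1* did not pass without array 2 (-0.40) or array 3 (-0.45) or with ratios centred without lowess (-0.27). *CTNNB1* passed without array 4 (-0.31) and failed without array 1 (-0.30), 2 (-0.24) or 3 (-0.21). Neither gene passed in the one-sample t-test, with no filter on dim probes or with channels unpaired.

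The label of the cells was checked against markers. No probe was named *PAX7*, the defining gene of satellite cells, or *CDH15*, *TNNT1* and *MYMK*. The 10 other myogenic genes were all well above background in both channels, with *MYH3* the brightest. All 10 were lower with HMB and past the threshold, with a median log2 ratio of -0.94 and medians of -0.45, -0.84, -1.06 and -1.22 on arrays 1 to 4. The mean was -1.01 ± 0.18 for *MYF5* (adjusted P = 0.00157), -0.98 ± 0.37 for *DES* (0.00683) and -1.11 ± 0.47 for *MYH3* (0.00846). It was -0.46 ± 0.24 for *MYOD1* (0.023) and -0.42 ± 0.20 for *MYOG* (0.0222), the genes of the factors that drive differentiation. With ratios centred without lowess, *MYH3* was at -0.21 and did not pass, and *DES* was at -0.46. The count of 10 was 9 without array 1, 6 without array 2, 6 without array 3 and 7 without array 4. It was 6 with ratios centred without lowess, 3 with no filter on dim probes and 0 in the one-sample t-test, where 9 had an unadjusted P under 0.05. With 1 array left out, *MYOD1* passed only without array 1 (-0.57), and *MYOG* was lost without array 2 (-0.46) or array 3 (-0.38). The summed processed signal of the 10 genes was 181578, 181794, 194171 and 201584 in control cells and 131449, 90520, 83295 and 75529 in HMB-treated cells. Like these genes, *CDKN1A*, *CCND2* and *CCND3* were lower with HMB. The myogenic median and *CDKN1A* were lowest on array 4 (-1.22 and -1.05), *CCND2* and *CCND3* on array 3 (-0.78 and -0.55). The part of the myogenic genes in the members' ratios was not tested.

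Of 9 fibroblast and stromal genes 8 were tested, with a median of 0.01, and 2 passed, beside 22.4% of all gene names. These were *PDGFRA* (1.53 ± 0.47) and *FAP* (0.42 ± 0.18), both higher and named after their values were seen. The count was 6 with ratios centred without lowess, 3 with normexp and loess, and 1 without array 1, 2 or 3, where only *PDGFRA* passed (1.68, 1.58 and 1.56). The mean of *PDGFRA* was 0.89 with normexp and loess and 0.93 with ratios centred without lowess, and that of *FAP* was 0.72 in the latter. *COL1A2* was the brightest, with a mean of -0.20 ± 0.28 that turned to 0.17 with normexp and loess. Without lowess it was 1.02 and passed in limma (adjusted P = 0.00311). The summed signal of this list was 326605, 306152, 337525 and 429590 in control cells and 393061, 284599, 308345 and 309463 in HMB-treated cells. Of the smooth muscle and pericyte genes 3 of 5 were tested, with a median of -0.53, and the brightest, *ACTA2*, had a mean of -0.53 ± 0.54 with array 4 the lowest, and passed without that array (-0.27). *MYH11*, named after its value was seen, had ratios of -0.89, -0.83 and -0.54 on arrays 1 to 3 and passed with these (mean -0.76). On array 4 its signal in HMB-treated cells was not well above background, so no ratio is given for it. With that array counted, *MYH11* was the only gene of this list past the threshold in limma (adjusted P = 0.0368). It did not pass without array 1, 2 or 3. The summed signal of the list went from 20367, 19700, 14537 and 14121 in control cells to 17832, 16166, 11635 and 5660 in HMB-treated cells. Of 7 leukocyte genes 2 were tested and 0 passed in limma (1 at an unadjusted P under 0.05) or in the one-sample t-test, *CD14* being the brightest with a mean of 0.02 ± 0.15, which passed at 0.30 with ratios centred without lowess. None of the 5 endothelial and 4 adipocyte genes that had a probe was bright enough to be tested.

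The genes whose ratios on the 4 arrays lay nearest to those of *CDKN1A*, by Euclidean distance among 8577 genes with a symbol, were *MUSK* (distance 0.09), *GATM* (0.11) and *ESYT3* (0.13). *MUSK*, the receptor kinase of the neuromuscular junction, had ratios of -0.55, -0.63, -0.76 and -1.01. *GATM*, an enzyme of creatine synthesis, had ratios of -0.48, -0.54, -0.84 and -1.03, and *ESYT3*, an extended synaptotagmin, of -0.48, -0.60, -0.67 and -0.95. With 4 arrays, this is a description of 4 values and no more.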

How the data were processed

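The authors deposited Feature Extraction output (version 10.10.1.1 per the file headers) for 4 arrays: raw intensities, processed intensities after background subtraction and dye normalisation, and log10 ratios of Cy5 over Cy3 after linear and lowess normalisation. Other deposited columns are marks of 0 or 1. Only RNA with an integrity number of at least 9.2 was used by the authors.

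Ratios were multiplied by 3.32 to log2. Control spots and spots marked non-uniform or outlying were left out, and spots of a probe averaged. The test took the 27384 of 43603 probes for which 1 channel exceeded background clearly on each of the 4 arrays and 3 or more ratios were present. Ratios were tested against 0 with limma 3.58.1 in R 4.3.3, two-sided, with P values adjusted by Benjamini-Hochberg across these probes and called at 0.05. An exact sign-flip test cannot go below P = 0.125 here. The number of arrays limits the precision. Python 3.11.15, the R package data.table (1.17.8), numpy 2.4.6, pandas 2.3.3, scipy 1.17.1 and matplotlib 3.10.9 were also used. The test was tried on simulated data, but the outcome is not reported here and no result rests on it.

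The members and lists were chosen with earlier results of these data known. The totals over the 7 lists include 1 list whose own counts, and 1 gene of it, are not reported here. A gene is its tested probe of highest mean processed signal. Named were the members, up to 4 changed genes of lowest adjusted P in each list, partners of the members, 5 myogenic genes, the brightest gene of the other marker lists and the 3 nearest genes. The one-sample t-test was run on the ratios of each probe. A student test, its form not given, is named in the authors' supplementary workbook, not in the methods section. Other alternatives were normexp (offset 50) with loess or, without lowess, with median centring, an intensity trend with a robust prior, no filter, a filter on Cy3 and Cy5 together, keeping marked spots, the deposited value table, unpaired channels, a minimum of 1.3-fold, averaging the probes of a gene and leaving out each array. Counting the cyclin D1 probe as a member was chosen after seeing the data.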

Additional observations from a re-analysis of the deposited data

Results flagged for a closer look

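Over 49 genes named in the text, 4 had 1 array apart from the rest by Dixon's ratio of gap to range, and chance alone gives this for about 1 group in 20. The probe described as cyclin D1 had a log2 ratio of -0.25 on array 3, beside 0.38 to 0.43 on the others. *CCNB2* had 0.25 on array 3, beside 0.77 to 0.86. *E2F4* had 0.79 on array 1, beside 0.16 to 0.23. *ACTA2* had -1.34 on array 4, beside -0.32 to -0.19. No member found by name was among them.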

How the results depend on the processing

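*CDKN1A* kept its negative mean under all 14 alternatives, between -0.80 and -0.49, and passed in 12, the exceptions being the one-sample t-test and no filter on dim probes (-0.72 in both). *CCND2* passed in 12 of 14, but not without lowess (normexp and centring, -0.22) or in the t-test (-0.61). *CCND3* passed in 7 of 14. Its mean was -0.19 without lowess and -0.38 in the t-test, with no filter and with unpaired channels, and -0.48 to -0.32 with arrays left out. Without lowess, *CDKN1B* turned to 0.042, *RB1* to 0.045, *CDK6* to 0.11, *CTNNB1* to 0.33, *MDM2* to -0.0028 and *SKP1* to 0.21. In that setting *COL1A2* turned to 1.02 and passed, and *CDKN2C* passed at 0.43 and *CD14* at 0.30. *RBL1* was 0.061 there and 0.088 with normexp and loess. With normexp and loess, *CD14* was -0.029, *CDK4* -0.022 and *COL1A2* 0.17. With arrays left out, *CD14* ran from -0.040 to 0.084 and *CDK4* from -0.17 to 0.14, both negative without array 1. The cause of these shifts was not tested.

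Of the members, 0 passed in the t-test (3 at an unadjusted P under 0.05), 1 with no filter and 2 to 3 with arrays left out, and counting the cyclin D1 probe left the count at 3. The 22 list genes became 0 in the t-test and with unpaired channels, 1 with no filter, 13 with the minimum fold and 6 to 15 with arrays left out. All changed probes, 6257, became 768 in the t-test, 3690 with no filter (43603 tested), 2226 with unpaired channels, 3863 with the minimum fold and 2564 to 4981 with arrays left out.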
